A study of Mus musculus with 2 samples.

Results

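The 30 genes described here encode the proteins that license, unwind and copy DNA, feed it with nucleotides and repackage it, and they serve as marks of cells in S phase. They were chosen by symbol from the 32285 genes of the deposited tables, and all 30 were found in both libraries. The study profiled single cells of mouse forebrain at embryonic day 18.5 with a droplet method that counts unique molecular identifiers (UMIs), tags that mark each captured RNA molecule. There were 2 libraries, 1 labelled Cyfip2 knockout and 1 labelled wild type, and each was made from a pool of 2 forebrains. The targeted gene codes for a part of the WAVE complex, an activator of actin branching, and the question is what its loss changes in the forebrain. The labels used here name no allele, strain, sex or deleted part, so the genotype rests on the label. Each genotype has 1 library, so nothing below that sets one library against the other could be checked in replicates. Intervals (95%) reflect counting error alone, and no p-value is given.

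Barcodes counted as cells from 1000 UMIs and 500 genes upward and with no more than 10% mitochondrial UMIs, and after removal of doublets there were 11533 cells in the knockout-labelled library and 8426 in wild type. The libraries held 150828048 UMIs (knockout-labelled) and 123978461 UMIs (wild type), and 32 cell barcodes were shared by both. Cyfip2 was at 84.4 CPM (UMIs per 1000000 UMIs of the class) in knockout-labelled and 84.9 CPM in wild-type cells over all cell types. In eminence progenitor-like cells it was at 64.0 CPM in the knockout-labelled library, against 23.7 CPM in wild type. UMI tags read a short part of a transcript and cannot check a deletion outside it, and the library is called knockout-labelled throughout. Free RNA, read from barcodes under 100 UMIs, was estimated from haemoglobin tags at 1.55% to 2.44% of the UMIs of the progenitor-like cells.

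Progenitor-like cells made up 5 of the 32 clusters, and the 30 genes were left out when the cells were clustered. The cortical class joined 3 clusters: intermediate progenitor-like cells led by Eomes and Neurog2 (cluster 8), radial glia-like cells led by Aldoc, Fabp7 and Hes5 (cluster 15) and dividing cells with Eomes, Neurog2 and Pax6 (cluster 23). The eminence class joined dividing cells with Dlx1, Dlx2 and Dlx6os1 (cluster 10) and cells led by Gadd45g, Olig1 and Olig2 that also held Dlx1, Dlx2 and Dlx6os1 (cluster 22). There were 866 cortical cells in the knockout-labelled library and 866 in wild type, and 672 eminence cells in the knockout-labelled library and 426 in wild type. The label of the eminence class is weakest in cluster 22, where 2 genes of the oligodendrocyte list stood beside 2 eminence markers among the 10 leading genes. Pdgfra and Sox10, which mark oligodendrocyte precursors, were at 8.31 and 1.35 CPM in it over both libraries together, and Dlx1 was at 785 CPM. In the text below, cortical cells and eminence cells mean these progenitor-like classes.

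Origins of replication are licensed in G1 phase, when the origin recognition complex, CDC6 and CDT1 load the ring of MCM2 to MCM7 onto DNA. In S phase, CDC45 and the GINS complex turn that ring into a moving helicase, primase and DNA polymerase alpha begin each strand, and PCNA clamps the main polymerases to their template. Many of these genes are targets of E2F factors, which are released when a cell commits to divide, and their transcripts fall when a neuron leaves the cell cycle. In the late embryonic forebrain, radial glia and intermediate progenitors of the cortex give rise to excitatory neurons, and progenitors of the ganglionic eminences give rise to GABAergic neurons and later to oligodendrocyte precursors.

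Promoters of 25 of the 30 genes were in the RefSeq table (build GRCm38.p6, 250 bases before to 50 after each start), and those of Mcm4, Gmnn, Gins2, Tipin and Usp1 were not. An E2F-type heptamer (the letters TTCCCGC, the letters TTCGCGC, the letters TTGCCGC or the letters TTGGCGC, on either strand) was in the promoters of 17 of the 25 genes, which is 68.0%, against 10.9% of all 27025 genes in the table. CCAAT, the box bound by NF-Y, was in 16 of 25 on either strand, which is 64.0%, against 41.1% of all genes. TTTGAA, the core of the CHR element of late cell cycle genes, was in 3 of 25, against 20.2% of all genes. The median GC content was 59.8% in the promoters of the 25 genes and 52.7% in all promoters, and its part in the difference was not tested. The promoters of 4 genes that the results turn on are shown 5′ to 3′ on the strand of the gene, with E2F-type heptamers and CCAAT boxes in capitals. Mcm6 (chr1:128359656-128359955, minus strand) holds 5 heptamers, of which 4 lie as overlapping pairs in both runs of 10 capitals. Pola1 (chrX:93632106-93632405, minus strand) holds 4, Rrm2 (chr12:24708004-24708303, plus strand) holds 1, and Ung (chr5:114130185-114130484, plus strand) holds none in this window.
Mcm6: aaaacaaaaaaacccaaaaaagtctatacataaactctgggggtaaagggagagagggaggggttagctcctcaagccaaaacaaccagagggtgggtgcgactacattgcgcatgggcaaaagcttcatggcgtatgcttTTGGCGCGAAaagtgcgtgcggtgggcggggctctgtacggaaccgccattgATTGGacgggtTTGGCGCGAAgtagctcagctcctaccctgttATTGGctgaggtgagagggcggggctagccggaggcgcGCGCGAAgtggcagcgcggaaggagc
Pola1: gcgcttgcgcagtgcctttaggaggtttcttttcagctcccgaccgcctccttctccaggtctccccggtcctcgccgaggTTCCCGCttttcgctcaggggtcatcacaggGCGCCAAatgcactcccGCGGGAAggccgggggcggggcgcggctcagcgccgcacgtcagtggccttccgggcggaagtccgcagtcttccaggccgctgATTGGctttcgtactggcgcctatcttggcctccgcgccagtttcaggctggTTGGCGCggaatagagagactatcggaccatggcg
Rrm2: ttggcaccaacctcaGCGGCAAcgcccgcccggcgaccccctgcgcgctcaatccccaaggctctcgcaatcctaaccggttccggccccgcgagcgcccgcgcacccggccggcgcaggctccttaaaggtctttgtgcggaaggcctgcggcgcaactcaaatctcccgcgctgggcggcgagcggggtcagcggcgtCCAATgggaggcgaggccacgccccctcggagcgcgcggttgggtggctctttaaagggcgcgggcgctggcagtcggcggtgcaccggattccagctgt
Ung: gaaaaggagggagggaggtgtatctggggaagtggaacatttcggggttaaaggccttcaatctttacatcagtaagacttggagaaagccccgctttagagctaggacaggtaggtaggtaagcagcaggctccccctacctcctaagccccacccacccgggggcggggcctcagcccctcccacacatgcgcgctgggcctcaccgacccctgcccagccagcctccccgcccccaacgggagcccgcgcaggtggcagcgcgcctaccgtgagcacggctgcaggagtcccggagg

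The 30 genes together were highest in progenitor-like cells and low in neuron-like cells. Their summed level was 2527 CPM (2498 to 2556) in knockout-labelled and 2734 CPM (2705 to 2762) in wild-type cortical cells. In eminence cells it was 5238 CPM (5189 to 5286) in the knockout-labelled library and 5649 CPM (5592 to 5707) in wild type. Excitatory neuron-like cells held 542 CPM (knockout-labelled) and 561 CPM (wild type), and GABAergic neuron-like cells held 717 CPM (knockout-labelled) and 699.8 CPM (wild type). The order of these 4 classes was the same in both libraries, and no intervals overlapped between classes. By the free RNA estimate, 17.1 to 46.3 CPM of these sums came from outside the cells. A UMI count is per molecule and not per length, so CPM counts captured molecules, genes may differ in capture, and levels are compared between cells rather than between genes. In a summed level, fewer cells with transcripts and fewer transcripts per cell cannot be told apart.

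**Figure D1:**
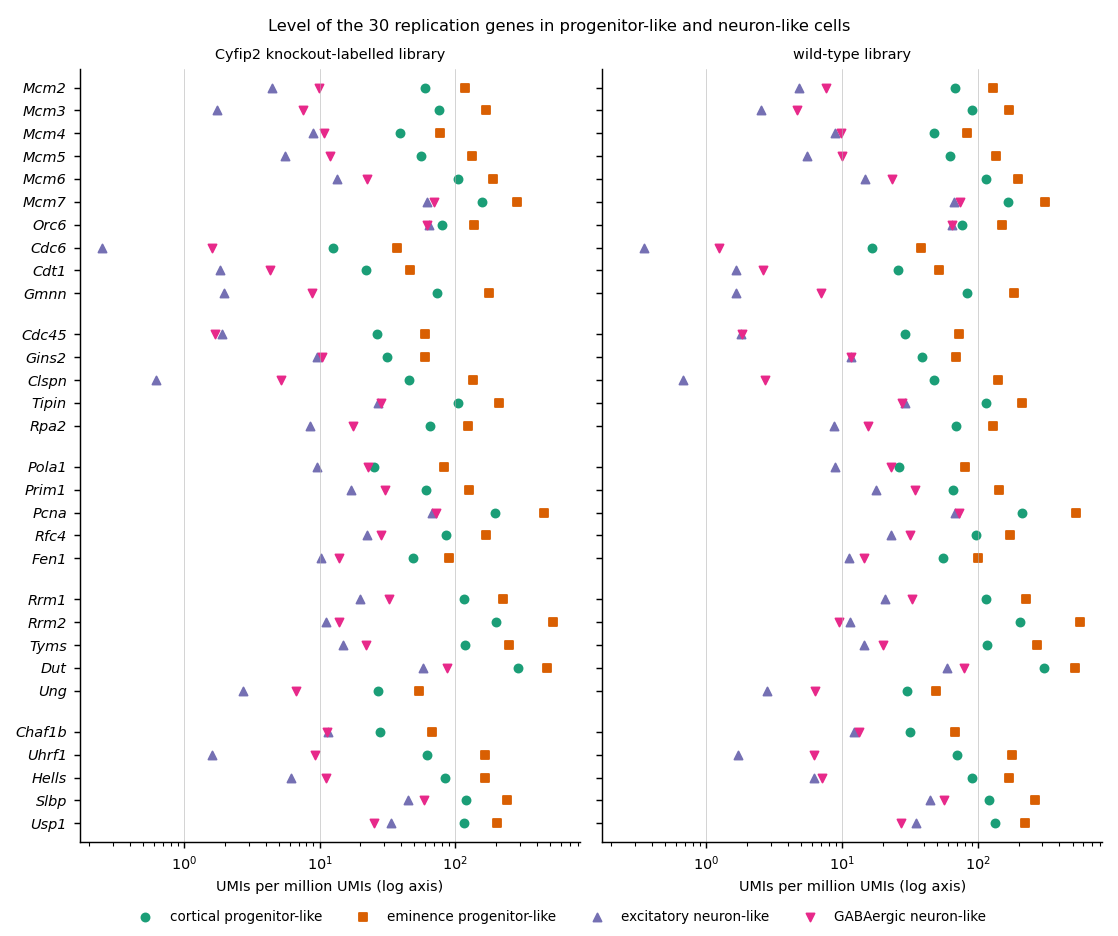
Level of each of the 30 genes, grouped by role from licensing (top) to chromatin and repair (bottom), in CPM on a log axis in the knockout-labelled (left) and wild-type (right) library. Points are summed over all cells of a class, and for every gene the eminence progenitor-like cells (squares) lie to the right of the cortical ones (circles), with the neuron-like classes (triangles) to the left of both.

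Of the licensing genes, the subunits of the MCM ring were each lower in cortical than in eminence cells. Mcm2 stood at 60.2 CPM (knockout-labelled) and 68.0 CPM (wild type) in cortical cells, against 119 CPM (knockout-labelled) and 129.9 CPM (wild type) in eminence cells. Mcm3 had 76.2 CPM in knockout-labelled and 90.0 CPM in wild-type cortical cells, against 167 CPM in knockout-labelled and 171 CPM in wild-type eminence cells. Mcm4, with the fewest captured molecules of the 6, stood at 39.2 CPM (knockout-labelled) and 47.7 CPM (wild type) in cortical cells, against 77.2 CPM (knockout-labelled) and 83.4 CPM (wild type) in eminence cells. All 6 proteins sit side by side in the same ring. Mcm5 had 56.1 CPM in knockout-labelled and 62.2 CPM in wild-type cortical cells, against 132 CPM in knockout-labelled and 137 CPM in wild-type eminence cells. Mcm6 stood at 105 CPM (knockout-labelled) and 115 CPM (wild type) in cortical cells, against 189.9 CPM (knockout-labelled) and 198 CPM (wild type) in eminence cells. Mcm7, with the most, had 156 CPM in knockout-labelled and 168 CPM in wild-type cortical cells, against 286 CPM in knockout-labelled and 315 CPM in wild-type eminence cells. The loaders of the ring followed the same order of classes. Cdc6, which loads the ring with the origin recognition complex, stood at 12.6 CPM (knockout-labelled) and 16.6 CPM (wild type) in cortical cells, against 37.3 CPM (knockout-labelled) and 38.2 CPM (wild type) in eminence cells. Cdt1, which brings the ring to the origin, had 22.1 CPM in knockout-labelled and 26.0 CPM in wild-type cortical cells, against 46.3 CPM in knockout-labelled and 52.3 CPM in wild-type eminence cells. Gmnn, the inhibitor of CDT1 that blocks repeated licensing, stood at 73.6 CPM (knockout-labelled) and 83.1 CPM (wild type) in cortical cells, against 178 CPM (knockout-labelled) and 184 CPM (wild type) in eminence cells. Orc6, a subunit of the origin recognition complex, reached 80.3 CPM in cortical cells of the knockout-labelled library and 76.5 CPM in those of wild type, against 136 CPM in eminence cells of the knockout-labelled library and 151 CPM in those of wild type.

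Genes of the moving helicase and its fork followed the same order of classes. Cdc45, which binds the ring to make it active, stood at 26.3 CPM (knockout-labelled) and 29.1 CPM (wild type) in cortical cells, against 60.1 CPM (knockout-labelled) and 72.3 CPM (wild type) in eminence cells. Gins2, a subunit of the GINS complex, had 31.4 CPM in knockout-labelled and 38.9 CPM in wild-type cortical cells, against 59.9 CPM in knockout-labelled and 68.9 CPM in wild-type eminence cells. Clspn encodes claspin, which carries the checkpoint signal of stalled forks. Clspn stood at 45.9 CPM (knockout-labelled) and 47.6 CPM (wild type) in cortical cells, against 136 CPM (knockout-labelled) and 142 CPM (wild type) in eminence cells. Tipin, a part of the fork protection complex, had 105 CPM in knockout-labelled and 116 CPM in wild-type cortical cells, against 208 CPM in knockout-labelled and 212 CPM in wild-type eminence cells. Rpa2, a subunit of the protein that coats single-stranded DNA, stood at 64.8 CPM (knockout-labelled) and 68.8 CPM (wild type) in cortical cells, against 124 CPM (knockout-labelled) and 129 CPM (wild type) in eminence cells.

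Genes of strand synthesis were likewise lower in cortical cells. Pola1, the catalytic subunit of DNA polymerase alpha, stood at 25.3 CPM (knockout-labelled) and 26.4 CPM (wild type) in cortical cells, against 82.6 CPM (knockout-labelled) and 80.9 CPM (wild type) in eminence cells. Prim1, the primase that lays the RNA primer, had 60.8 CPM in knockout-labelled and 65.8 CPM in wild-type cortical cells, against 127 CPM in knockout-labelled and 144 CPM in wild-type eminence cells. Pcna, the sliding clamp, stood at 194 CPM (knockout-labelled) and 213 CPM (wild type) in cortical cells, against 447 CPM (knockout-labelled) and 526 CPM (wild type) in eminence cells. For Pcna the knockout-labelled library was the lower in both classes. Rfc4, a subunit of the clamp loader, had 85.2 CPM in knockout-labelled and 97.8 CPM in wild-type cortical cells, against 169 CPM in knockout-labelled and 174 CPM in wild-type eminence cells. Fen1, the nuclease that trims lagging strand fragments, stood at 48.9 CPM (knockout-labelled) and 55.1 CPM (wild type) in cortical cells, against 89.1 CPM (knockout-labelled) and 99.7 CPM (wild type) in eminence cells.

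Genes of nucleotide supply and of uracil removal came next. Rrm2, the regulated subunit of ribonucleotide reductase, stood at 198 CPM (knockout-labelled) and 204 CPM (wild type) in cortical cells, against 523 CPM (knockout-labelled) and 564 CPM (wild type) in eminence cells. Rrm1, the large subunit of the same enzyme, had 116 CPM in knockout-labelled and 116 CPM in wild-type cortical cells, against 226 CPM in knockout-labelled and 227 CPM in wild-type eminence cells. Dut, the dUTPase that keeps uracil out of DNA, stood at 287 CPM (knockout-labelled) and 309 CPM (wild type) in cortical cells, against 473 CPM (knockout-labelled) and 520.3 CPM (wild type) in eminence cells. Rrm2, Dut and Pcna together held 26.9% of the UMIs of the 30 genes in knockout-labelled and 26.6% in wild-type cortical cells. Tyms, thymidylate synthase, had 119 CPM in knockout-labelled and 116 CPM in wild-type cortical cells, against 249 CPM in knockout-labelled and 275 CPM in wild-type eminence cells. Ung, the uracil-DNA glycosylase that removes uracil from DNA, stood at 27.1 CPM (knockout-labelled) and 30.4 CPM (wild type) in cortical cells, against 54.0 CPM (knockout-labelled) and 49.7 CPM (wild type) in eminence cells. Both Dut and Ung guard DNA against uracil.

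The last group acts on chromatin, histone messages and repair. Chaf1b, a subunit of the factor that assembles nucleosomes on new DNA, stood at 28.1 CPM (knockout-labelled) and 31.5 CPM (wild type) in cortical cells, against 67.7 CPM (knockout-labelled) and 68.4 CPM (wild type) in eminence cells. Uhrf1, which guides DNA methylation to new strands, had 61.3 CPM in knockout-labelled and 70.7 CPM in wild-type cortical cells, against 165 CPM in knockout-labelled and 179 CPM in wild-type eminence cells. Hells, a chromatin remodeller, stood at 84.4 CPM (knockout-labelled) and 90.5 CPM (wild type) in cortical cells, against 164 CPM (knockout-labelled) and 171 CPM (wild type) in eminence cells. Each of these chromatin genes was lower in cortical cells. Slbp, which binds the stem-loop of histone messages, had 121 CPM in knockout-labelled and 121 CPM in wild-type cortical cells, against 241 CPM in knockout-labelled and 266 CPM in wild-type eminence cells. Usp1, a deubiquitinase of PCNA and of the Fanconi pathway, stood at 117 CPM (knockout-labelled) and 133 CPM (wild type) in cortical cells, against 201 CPM (knockout-labelled) and 221 CPM (wild type) in eminence cells.

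The genes differed in how much remained in neuron-like cells. Cortical cells exceeded excitatory neuron-like cells by the rule of at least 1.5-fold with an interval leaving out 1 for 28 of the 29 measured genes in both libraries. Over all genes 20.7% met that rule in that direction. A gene counted as measured with at least 20 CPM in either class and at least 100 counts in both together, and Cdc6 fell short of this. Orc6 was the exception: excitatory neuron-like cells had 64.4 CPM in the knockout-labelled library and 65.1 CPM in wild type, less than 1.5-fold below the cortical cells. Its log2 ratio of cortical cells over these neurons was 0.32 (0.21 to 0.42) in the knockout-labelled and 0.23 (0.13 to 0.33) in the wild-type library. Clspn lay at the other end, with 0.618 CPM (knockout-labelled, 37 UMIs) and 0.673 CPM (wild type, 39 UMIs) in excitatory neuron-like cells. Its log2 ratios were 6.22 (5.73 to 6.74) in the knockout-labelled and 6.14 (5.68 to 6.65) in the wild-type library. Free RNA held Clspn at 13.1 CPM (knockout-labelled) and 10.5 CPM (wild type) and was not subtracted here, so part of these low levels may come from outside the cells. Mcm3, Cdc6, Cdt1, Gmnn, Cdc45, Ung and Uhrf1 were also below 3 CPM in these neurons in both libraries. Eminence cells exceeded GABAergic neuron-like cells for all 30 genes in both libraries, against 17.8% of all genes, with log2 ratios from 1.15 for Orc6 to 5.23 for Rrm2 in the knockout-labelled library and from 1.22 for Orc6 to 5.90 for Rrm2 in wild type. Mcm7, Orc6, Pcna, Dut and Slbp gave 54.5% of the UMIs of the 30 genes in knockout-labelled and 54.0% in wild-type excitatory neuron-like cells. In cortical cells these 5 genes gave 33.2% (knockout-labelled) and 32.5% (wild type). They were chosen after their values were seen. Pola1 also differed between the neuron classes. Excitatory neuron-like cells had 9.55 CPM (knockout-labelled) and 8.85 CPM (wild type) of Pola1, against 22.9 CPM (knockout-labelled) and 23.1 CPM (wild type) in GABAergic neuron-like cells.

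Part of the level in GABAergic neuron-like cells came from cluster 5, led by Tshz1, Pbx3, Dlx6os1 and Foxp2. There the 30 genes summed to 1433 CPM (1392 to 1474) in the knockout-labelled library and 1198 CPM (1149.7 to 1247) in wild type. Intermediate progenitor-like cells of cluster 8 held 1403 CPM (knockout-labelled) and 1629.5 CPM (wild type). Outside the neural lineages, microglia or macrophage-like cells held 937 CPM (knockout-labelled, 143 cells) and 1296 CPM (wild type, 69 cells).

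Single cells were compared after each was thinned to 3000 UMIs, so that depth was equal. Cells with fewer were left out, which took 42 knockout-labelled and 35 wild-type cortical cells, and 55 knockout-labelled and 25 wild-type eminence cells. A cell with at least 5 UMIs of the 30 genes is called replication-high. The share of replication-high cells was 37.4% (34.1 to 40.8) in knockout-labelled and 40.7% (37.3 to 44.1) in wild-type cortical cells. Among eminence cells it was 80.4% (77.0 to 83.5) in the knockout-labelled library and 84.8% (80.9 to 88.2) in wild type. The intervals of the libraries overlapped in both classes, while those of cortical and eminence cells lay far apart. Overlap alone does not show that the shares of the libraries are equal. In neuron-like cells, which should lack replication, the share was 2.74% (knockout-labelled) and 3.29% (wild type) of excitatory and 7.10% (knockout-labelled) and 6.97% (wild type) of GABAergic cells. Averaged over all possible draws of 3000 UMIs, the shares of replication-high cells were 36.0% (knockout-labelled) and 40.2% (wild type) in cortical cells, and 80.3% (knockout-labelled) and 84.0% (wild type) in eminence cells. Cells at 4 to 6 UMIs, near the limit, were 14.9% of knockout-labelled and 15.4% of wild-type cortical cells. The class is therefore a range of a score and not a type of cell. Without thinning, by the same level per UMI, the shares were 32.3% in knockout-labelled and 37.1% in wild-type cortical cells, and 78.9% in knockout-labelled and 83.3% in wild-type eminence cells.

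A list of 30 genes of G2 phase and mitosis, such as Mki67, Top2a and Plk1, was read in the same way. The clusters then fell into distinct patterns. In intermediate progenitor-like cluster 8, 80.9% of knockout-labelled and 78.1% of wild-type cells were high for neither list. In radial glia-like cluster 15 this share was 39.9% (knockout-labelled) and 35.0% (wild type). In dividing cortical cluster 23, 83.9% of knockout-labelled and 88.1% of wild-type cells were high for both lists. Dividing eminence cluster 10 was alike, with 78.6% (74.5 to 82.3) of knockout-labelled and 85.6% (80.9 to 89.5) of wild-type cells high for both, and the rest were nearly all high for the G2/M list alone. Eminence cluster 22 stood apart: 55.6% (48.0 to 63.0) of knockout-labelled and 53.2% (44.1 to 62.2) of wild-type cells were high for the replication genes alone. Among GABAergic neuron-like cells of cluster 5, 19.5% of knockout-labelled and 18.4% of wild-type cells were replication-high. That is above the share in GABAergic neuron-like cells as a whole, which include them.

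**Figure D2:**
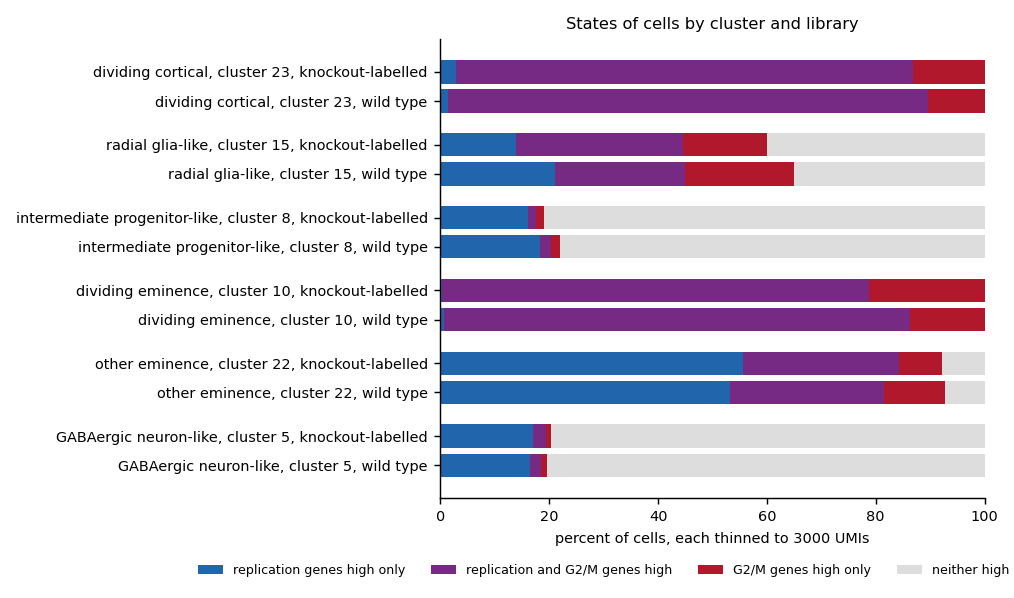
Percent of cells in each of 4 states, after thinning to 3000 UMIs, for the 5 progenitor-like clusters and GABAergic neuron-like cluster 5, with the knockout-labelled library above wild type in each pair. Clusters 23 and 10 are filled by cells high for both lists, cluster 22 by cells high for the replication genes alone, and clusters 8 and 5 by cells high for neither.

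Within progenitor-like cells, with both classes pooled, the 30 genes split by state. The mixture of classes differed between states. By all 30 genes, 109 cortical and 100 eminence cells (knockout-labelled) were high for the replication genes alone, and 138 and 68 in wild type. High for both lists were 199 cortical and 396 eminence cells (knockout-labelled), and 200 and 272 in wild type. State and class thus cannot be told apart in the pooled ratios. For each gene the cells were sorted by the other 29 genes and by the G2/M list, so that a gene never set its own state. For Mcm2 this gave 203 knockout-labelled and 201 wild-type cells high for the replication genes alone, and 594 knockout-labelled and 466 wild-type cells high for both lists. All 30 genes were higher in cells high for the replication genes alone than in cells high for neither list, and all 30 were lower in cells high for the G2/M list alone than in cells high for both lists, with intervals leaving out 0 in both libraries. Over all genes this held for 19.1% and 13.2%. The other 29 genes set these states, so the counts are a description.

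Between cells high for both lists and cells high for the replication genes alone, 14 genes were lower and 10 higher in both libraries, against 19.2% lower and 15.6% higher of all genes. Ung had the widest difference. It was at 28.4 CPM (knockout-labelled) and 29.9 CPM (wild type) in cells high for both lists, against 159.6 CPM (knockout-labelled) and 137 CPM (wild type) in cells high for the replication genes alone. The log2 ratio was -2.49 (-2.71 to -2.27) in the knockout-labelled and -2.19 (-2.42 to -1.96) in the wild-type library. Ung was 1 of 8 genes whose RefSeq promoters held no heptamer, with Mcm2, Orc6, Cdc45, Pcna, Tyms, Dut and Slbp. The other 13 lower genes were mostly licensing genes: Mcm2 to Mcm7, Cdc6 and Cdt1, with Gins2, Rpa2, Pcna, Chaf1b and Hells. Mcm4 had log2 ratios of -1.25 (-1.44 to -1.07) in the knockout-labelled and -1.03 (-1.20 to -0.85) in the wild-type library. For Mcm6, with 5 heptamers, they were -0.93 (-1.05 to -0.82) in the knockout-labelled and -0.86 (-0.98 to -0.75) in the wild-type library.

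Genes of nucleotide supply ran the other way, apart from Ung. Rrm2 was at 598 CPM (knockout-labelled) and 601 CPM (wild type) in cells high for both lists, against 345 CPM (knockout-labelled) and 292 CPM (wild type) in cells high for the replication genes alone. Its log2 ratio was 0.80 (0.70 to 0.89) in the knockout-labelled and 1.04 (0.94 to 1.15) in the wild-type library. Tyms, Rrm1 and Dut were higher too, as were Usp1, Clspn, Gmnn, Cdc45, Pola1 and Rfc4. Gmnn, the inhibitor of licensing, was thus opposite to its target Cdt1, with 0.40 (0.25 to 0.56) in the knockout-labelled and 0.53 (0.37 to 0.68) in the wild-type library for Gmnn and -0.68 (-0.92 to -0.43) in the knockout-labelled and -0.68 (-0.91 to -0.45) in the wild-type library for Cdt1. Orc6, Tipin, Prim1, Fen1, Uhrf1 and Slbp did not lie on 1 side in both libraries. Of the genes with a promoter in the table, 9 of 12 lower and 5 of 8 higher genes held a heptamer. In cells high for the G2/M list alone, Usp1 remained at 133 CPM (knockout-labelled) and 149 CPM (wild type), while Cdt1 was at 1.49 CPM (knockout-labelled) and 2.44 CPM (wild type).

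**Figure D3:**
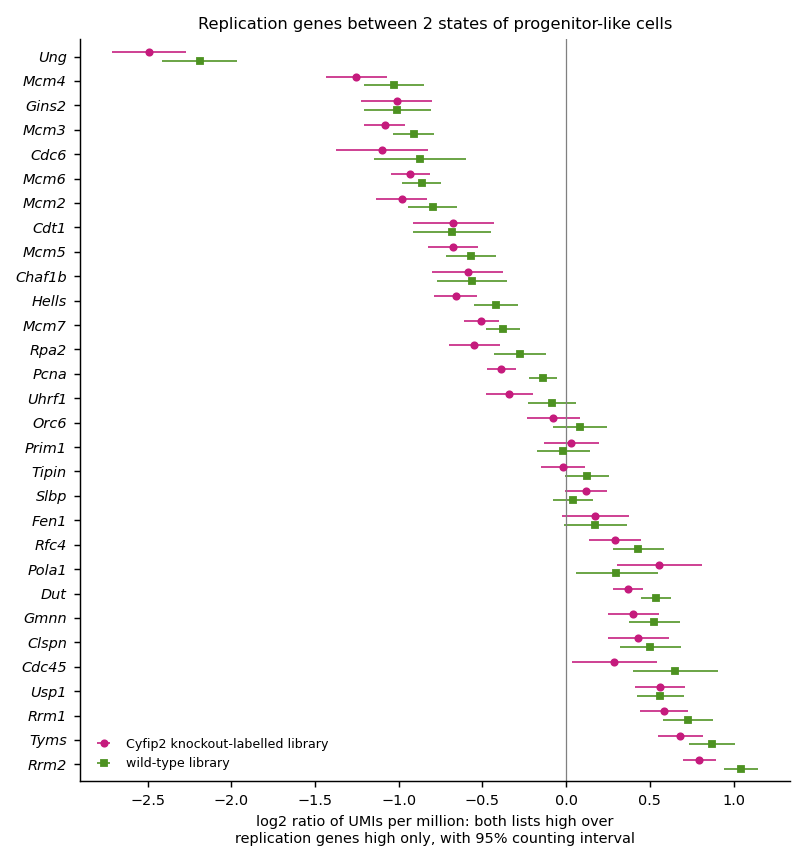
Log2 ratio of each gene's level in progenitor-like cells high for both lists over cells high for the replication genes alone, with 95% counting intervals, for the knockout-labelled (circles) and wild-type (squares) library, sorted by the mean of the 2 ratios. Ung is lowest, at -2.49 (knockout-labelled) and -2.19 (wild type), and Rrm2 highest. Cortical and eminence cells are pooled.

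The same split set eminence cluster 22 apart from dividing eminence cluster 10. By the 1.5-fold rule 12 genes were higher in cluster 22 in both libraries and 0 lower, against 5.70% higher and 9.30% lower of all genes. Of the 12 higher genes, 11 were among the 14 named above, and the other was Uhrf1. Ung was at 158 CPM in knockout-labelled and 138 CPM in wild-type cells of cluster 22, against 10.5 CPM in knockout-labelled and 14.0 CPM in wild-type cells of cluster 10. Its log2 ratio was 3.92 (3.54 to 4.32) in the knockout-labelled and 3.30 (2.90 to 3.71) in the wild-type library. Cdc6 followed, at 73.5 CPM (knockout-labelled) and 71.2 CPM (wild type) in cluster 22, against 22.3 CPM (knockout-labelled) and 24.8 CPM (wild type) in cluster 10. By the interval alone 15 genes lay above 0 in both libraries, against 17.4% of all genes. Gmnn, Pola1, Rrm1, Rrm2, Tyms, Dut and Usp1 lay below 0 in both, as did 18.1% of all genes. Mki67 and Top2a, used to find the clusters, were at 112 and 140.1 CPM in cluster 22 and at 861 and 1657 CPM in cluster 10, over both libraries together. Ung, Mcm3 and Uhrf1 were themselves among the 10 leading genes of cluster 22, although they were not used to cluster, so this comparison is a description.

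Cortical cells had less of every gene than eminence cells. All 30 were lower by the 1.5-fold rule in both libraries, against 8.87% of all genes. This count depends on how the classes were drawn, with G2/M genes used to cluster. The cortical class took in cluster 8, mostly high for neither list, and the eminence class held no such cluster. Cluster 5, with 2365 CPM of Dlx1, Dlx2 and Dlx6os1 together, was named neuron-like. The count is thus a description of these classes. The summed level had a log2 ratio of cortical over eminence cells of -1.05 (-1.07 to -1.03) in the knockout-labelled and -1.05 (-1.07 to -1.03) in the wild-type library. The median over the 30 genes was -0.995 (knockout-labelled) and -0.974 (wild type), beside 0.07 (knockout-labelled) and 0.08 (wild type) over all genes. Pola1 was furthest apart, with log2 ratios of -1.71 (-1.91 to -1.51) in the knockout-labelled and -1.62 (-1.81 to -1.42) in the wild-type library. Clspn had -1.57 (-1.72 to -1.42) in the knockout-labelled and -1.58 (-1.73 to -1.43) in the wild-type library, and Rrm2 had -1.40 (-1.48 to -1.33) in the knockout-labelled and -1.47 (-1.54 to -1.39) in the wild-type library. Cdc6, Uhrf1, Gmnn, Chaf1b, Mcm5, Pcna, Cdc45, Tyms, Cdt1 and Prim1 also lay below -1 in both libraries. Among the genes with smaller gaps, Dut had -0.72 (-0.78 to -0.65) in the knockout-labelled and -0.75 (-0.82 to -0.69) in the wild-type library and Usp1 had -0.79 (-0.89 to -0.69) in the knockout-labelled and -0.73 (-0.83 to -0.63) in the wild-type library. In wild type the smallest gap was that of Ung, at -0.71 (-0.92 to -0.50), and in the knockout-labelled library that of Dut. The genes of G2 phase and mitosis moved alike: 28 of 30 were lower by the rule in the knockout-labelled library, against 10.3% of all genes, and 27 of 30 in wild type, against 9.75%. Their summed level was 4770 CPM in knockout-labelled and 5129 CPM in wild-type cortical cells, against 9896 CPM in knockout-labelled and 9562 CPM in wild-type eminence cells. The 12 markers of excitatory neurons summed to 1282 CPM (knockout-labelled) and 1186 CPM (wild type) in cortical cells and to 189 CPM (knockout-labelled) and 170.4 CPM (wild type) in eminence cells, none at 0. The classes also differed in the share of cells high for neither list. After thinning, 54.9% of knockout-labelled and 49.5% of wild-type cortical cells were high for neither the replication nor the G2/M list. In eminence cells these shares were 2.27% (knockout-labelled) and 2.24% (wild type). Low counts for both lists do not tell whether a cell had left the cell cycle. Region and the share of cells high for neither list thus cannot be told apart in these sums. The part of neuron-like cells and of cells high for neither list in the gap between the classes was not tested in these sums, but values for matched clusters follow.

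Between the dividing clusters the sum was higher on the cortical side. The summed level was 5792 CPM in knockout-labelled and 5798 CPM in wild-type cells of dividing cortical cluster 23, against 4894 CPM in knockout-labelled and 5482 CPM in wild-type cells of dividing eminence cluster 10. The log2 ratio was 0.24 (0.21 to 0.27) in the knockout-labelled and 0.08 (0.05 to 0.11) in the wild-type library. In wild type most of this gap in the sum came from 1 gene, Dut, whose values are given below. The median log2 ratio over the 30 genes was 0.22 (knockout-labelled) and 0.08 (wild type), beside 0.02 (knockout-labelled) and 0.02 (wild type) over all genes. By the rule 1 gene was higher and 1 lower in both libraries, against 4.93% higher and 4.73% lower of all genes. Both counts are thus near the shares of all genes, and the 2 genes are described as single cases. The lower one was Pola1. It was at 54.5 CPM (knockout-labelled) and 48.1 CPM (wild type) in cluster 23, against 94.8 CPM (knockout-labelled) and 87.0 CPM (wild type) in cluster 10, with log2 ratios of -0.80 (-1.08 to -0.52) in the knockout-labelled and -0.86 (-1.16 to -0.56) in the wild-type library. Prim1, its partner in the same complex, had 0.27 (0.09 to 0.45) in the knockout-labelled and 0.11 (-0.07 to 0.29) in the wild-type library. The higher one was Dut, at 785 CPM (knockout-labelled) and 849 CPM (wild type) in cluster 23, against 491 CPM (knockout-labelled) and 555 CPM (wild type) in cluster 10, with log2 ratios of 0.68 (0.59 to 0.76) in the knockout-labelled and 0.61 (0.53 to 0.70) in the wild-type library. Dut, lower in the cortical class as a whole, was thus higher in its dividing cluster. Ung met the rule in the knockout-labelled library, against 6.72% higher and 8.61% lower of all genes there, and not in wild type, against 7.25% higher and 6.73% lower, with log2 ratios of 1.17 (0.63 to 1.70) in the knockout-labelled and 0.58 (0.03 to 1.12) in the wild-type library. By the interval alone, 7 genes lay above 0 in both libraries (Mcm2, Mcm6, Cdc45, Fen1, Dut, Ung and Hells) and 2 below, Pola1 and Gins2, against 12.7% above and 10.2% below of all genes. Gins2 had log2 ratios of -0.51 (-0.89 to -0.14) in the knockout-labelled and -0.58 (-0.94 to -0.23) in the wild-type library.

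Sorting by state in place of cluster gave a like order for Pola1 and another for Dut. Among cells high for both lists, the median log2 ratio of cortical over eminence cells was -0.26 (knockout-labelled) and -0.17 (wild type) over the 30 genes and 0.04 (knockout-labelled) and 0.05 (wild type) over all genes, with intervals below 0 in both libraries for 14 of the 30 genes and 12.1% of all genes, and above 0 for none and 19.7%. Pola1 was at -1.16 (-1.42 to -0.90) in the knockout-labelled and -0.88 (-1.13 to -0.63) in the wild-type library. Dut was at 0.07 (-0.01 to 0.15) in the knockout-labelled and 0.15 (0.07 to 0.22) in the wild-type library, well short of its difference between the dividing clusters. Among cells high for the replication genes alone, the gap was wider, with a median of -0.60 (knockout-labelled) and -0.66 (wild type) over the 30 genes, and 26 genes below 0 in both libraries against 10.6% of all genes, and none above 0 against 12.1%. Uhrf1 stood at -1.44 (-1.71 to -1.17) in the knockout-labelled and -1.42 (-1.67 to -1.17) in the wild-type library there, the lowest of the 30 genes in the knockout-labelled library. In wild type Clspn was lower still, at -1.59 (-1.93 to -1.25). Cortical cells of this state come mostly from clusters 8 and 15, and eminence cells of this state mostly from cluster 22.

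**Figure D4:**
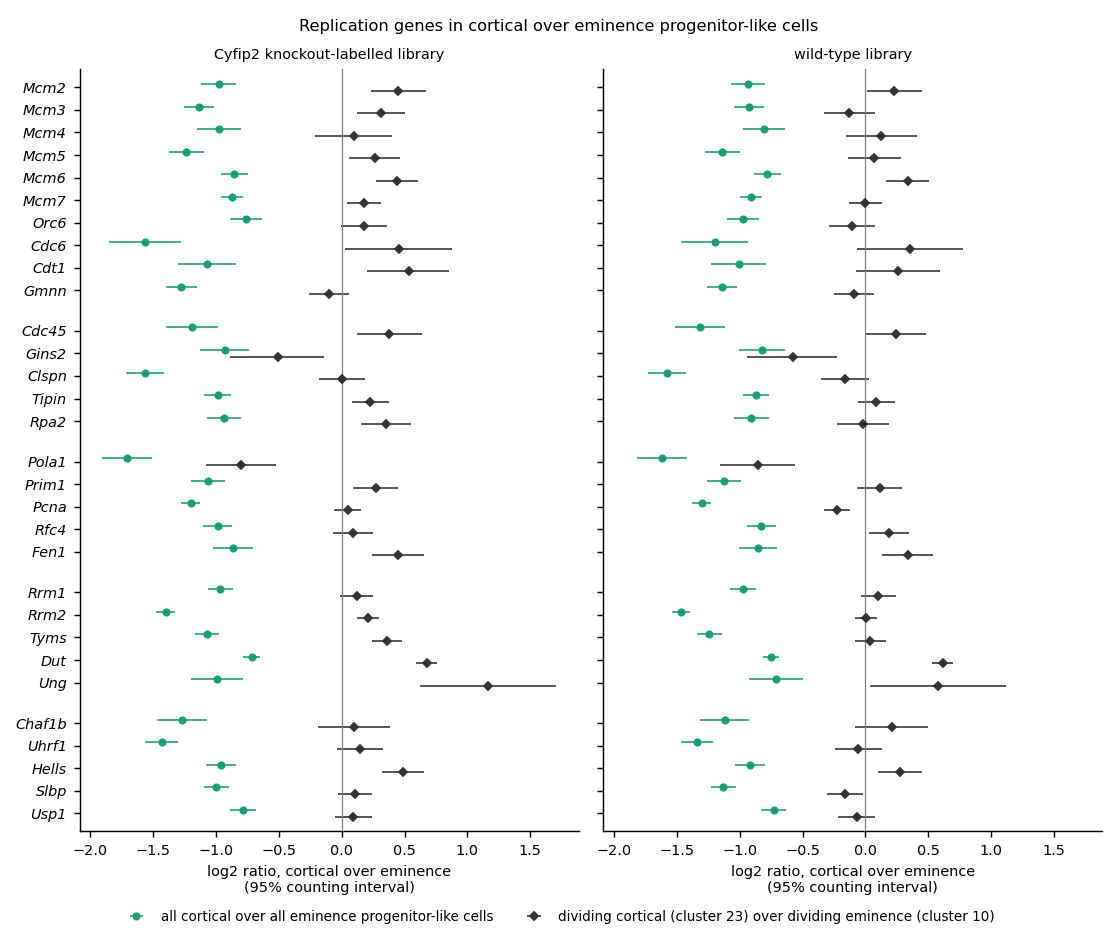
Log2 ratio of cortical over eminence progenitor-like cells for each gene with 95% counting intervals, in the knockout-labelled (left) and wild-type (right) library, for the whole classes (circles) and for the dividing clusters alone (diamonds). All 30 circles lie below 0, while most diamonds lie near or above 0, with Pola1 and Gins2 lowest and Dut and Ung highest.

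No gene of the 30 differed between the libraries by the 1.5-fold rule in either class. In cortical cells 0 of 29 measured genes were called, against 0.0433% higher and 0.217% lower of all genes. In eminence cells 0 of 30 were called, against 0.277% higher and 0.216% lower of all genes. Smaller differences ran in 1 direction. Set over wild type, the summed level of the knockout-labelled library had a log2 ratio of -0.11 (-0.14 to -0.09) in cortical and -0.11 (-0.13 to -0.09) in eminence cells, which are 0.924 and 0.927 of the wild-type level. The cortical value depended on the processing: it was -0.028 with at most 5% mitochondrial UMIs, -0.050 with all cell cycle lists left out of clustering and -0.056 at Leiden resolution 2. The eminence value was -0.107, -0.087 and -0.113 under these settings, and -0.165 without doublet removal. The median over the measured genes was -0.15 in cortical and -0.11 in eminence cells, beside -0.03 and -0.01 over all genes. In cortical cells the interval lay below 0 for 14 of 29 genes and above 0 for none, against 15.8% below and 7.87% above of all genes. In eminence cells it lay below 0 for 13 of 30 and above 0 for none, against 9.10% below and 6.93% above of all genes. In both classes it lay below 0 for 7 genes, namely Mcm7, Gins2, Pcna, Fen1, Dut, Uhrf1 and Usp1, against 2.80% of all genes. Pcna was at 447 CPM in knockout-labelled and 526 CPM in wild-type eminence cells, with a log2 ratio of -0.23 (-0.30 to -0.17), and in cortical cells its ratio was -0.13 (-0.21 to -0.05). Gins2 had -0.31 (-0.51 to -0.11) in cortical and -0.20 (-0.39 to -0.02) in eminence cells. Rrm1 lay near 0 in both classes, with 0.00 (-0.10 to 0.11) in cortical and 0.00 (-0.10 to 0.09) in eminence cells. These shifts rest on 1 library each, and how far 2 libraries of 1 genotype would differ cannot be told from them.

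**Figure D5:**
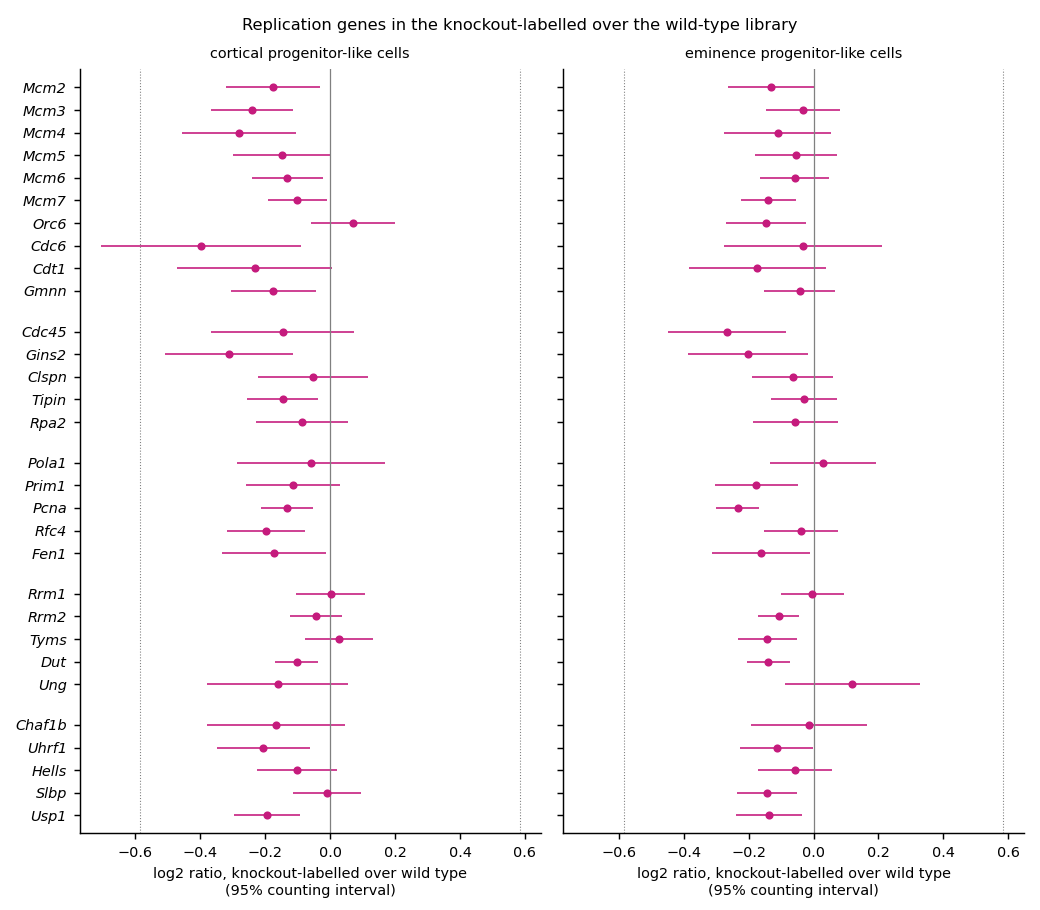
Log2 ratio (knockout-labelled over wild type) of each gene with 95% counting intervals in cortical (left) and eminence (right) progenitor-like cells. Dotted lines mark 1.5-fold in either direction. No point crosses them, and most points lie between 0 and -0.4.

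The shift was not the same in every cluster. The summed level was 1403 CPM in knockout-labelled and 1629.5 CPM in wild-type intermediate progenitor-like cells, a log2 ratio of -0.22 (-0.26 to -0.17). In radial glia-like cells it was 2044 CPM (knockout-labelled) and 2363 CPM (wild type), a log2 ratio of -0.21 (-0.25 to -0.17). Dividing eminence cluster 10 had a log2 ratio of -0.16 (-0.19 to -0.14). In eminence cluster 22 the summed level was 6062 CPM (knockout-labelled) and 6062 CPM (wild type), a log2 ratio of 0.00 (-0.03 to 0.03). In dividing cortical cluster 23 it was 5792 CPM (knockout-labelled) and 5798 CPM (wild type), a log2 ratio of 0.00 (-0.03 to 0.03). The intervals of clusters 8, 10 and 15 thus lay below 0 and those of clusters 22 and 23 held 0. Single genes below 0 were 13 of 26 measured in cluster 8, 16 of 29 in cluster 10 and 12 of 28 in cluster 15, against 8.40%, 9.18% and 8.77% of all genes. They were 0 of 30 in cluster 22 and 2 of 30 in cluster 23, Rfc4 and Dut, against 6.02% and 7.94%. Single genes above 0 were Tipin and Rrm2 in cluster 22 and none in the other 4 clusters, against 6.10%, 7.09%, 5.93%, 5.35% and 5.73% of all genes in clusters 8, 10, 15, 22 and 23. By the 1.5-fold rule, the share of all genes that were lower was 0.272%, 0.338%, 0.506%, 1.38% and 1.59% in these clusters, and the share that were higher was 0.182%, 0.553%, 0.478%, 1.05% and 0.525%. Among the measured genes of the 30, 1 met that rule in 1 cluster. This was Cdt1 in cluster 8, at 13.5 CPM in the knockout-labelled library and 20.8 CPM in wild type, with a log2 ratio of -0.63 (-1.08 to -0.19). Cdc6, which fell short of the 20 CPM minimum in cluster 15, had 7.84 CPM in the knockout-labelled library and 15.1 CPM in wild type there, with a log2 ratio of -0.94 (-1.59 to -0.33). In cluster 10 the share of replication-high cells was 78.8% (74.7 to 82.5) in the knockout-labelled library and 86.3% (81.7 to 90.1) in wild type. These intervals overlapped only from 81.7% to 82.5%.

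The mixture of clusters also differed between the libraries. Cluster 8, the cortical cluster with the least of the 30 genes, made up 51.6% of knockout-labelled and 45.4% of wild-type cortical cells, and cluster 15 made up 32.4% of knockout-labelled and 38.7% of wild-type cortical cells. With equal weights for the clusters, the summed log2 ratio (knockout-labelled over wild type) was -0.084 in cortical and -0.075 in eminence cells. The median depth was 13097.5 UMIs in knockout-labelled and 14534.5 UMIs in wild-type cortical cells, and 12435.5 UMIs in knockout-labelled and 14910.5 UMIs in wild-type eminence cells. Markers of radial glia summed to 7356 CPM in knockout-labelled and 8519 CPM in wild-type cortical cells. Among cells high for both lists, the median log2 ratio of the libraries over the 30 genes was -0.097 in cortical and -0.054 in eminence cells. Among cells high for the replication genes alone, it was -0.013 in cortical and -0.067 in eminence cells. The replication genes help to set these states, so these medians are a description. The part of mixture, depth and embryo in these differences was not tested beyond these values.

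Other replication genes were read from a list of 71 that holds none of the 30, such as the remaining origin and GINS subunits, cyclins and E2F factors. None of 51 measured in cortical and of 66 measured in eminence cells differed between the libraries by the rule, with medians of -0.07 and -0.08. Of 66 measured genes, 49 in the knockout-labelled and 52 in the wild-type library were lower in cortical than in eminence cells, against 10.3% (knockout-labelled) and 9.75% (wild type) of all genes. None were higher, against 15.1% (knockout-labelled) and 16.4% (wild type). The gap was widest for E2f2, a factor that drives replication genes, at 5.63 CPM in knockout-labelled and 7.82 CPM in wild-type cortical cells, against 42.1 CPM in knockout-labelled and 43.3 CPM in wild-type eminence cells. Cdca7, a partner of HELLS in DNA methylation, was at 109 CPM in knockout-labelled and 115 CPM in wild-type cortical cells, against 515 CPM in knockout-labelled and 494 CPM in wild-type eminence cells. Both also met the rule between the dividing clusters, where Cdca7 had log2 ratios of -1.81 (knockout-labelled) and -1.67 (wild type) and E2f2 had -1.23 (knockout-labelled) and -0.90 (wild type). E2f1, another factor of the family, met the rule the other way in the knockout-labelled library, at 79.2 CPM in dividing cortical and 44.7 CPM in dividing eminence cells. The genes named for the dividing clusters were chosen after their values were seen. Hells itself had 0.49 (0.32 to 0.66) in the knockout-labelled and 0.28 (0.10 to 0.45) in the wild-type library between those clusters, on the other side of 0. The list as a whole had medians of 0.00 (knockout-labelled) and -0.12 (wild type) there, with 2 genes higher and 6 lower of 66 in the knockout-labelled library, against 6.72% higher and 8.61% lower of all genes. In wild type 0 were higher and 4 lower of 65, against 7.25% higher and 6.73% lower of all genes. The shares that were lower are thus near those of all genes.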

How the data were processed

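Whole forebrains were dissociated with papain and put through a droplet protocol, per the labels. The deposited matrices hold raw UMI counts per gene and barcode, with Cell Ranger 4 named in the file headers and mm10 in the submitters' processing notes. The annotation release and counting settings are not stated in the sources used here. The 30 genes, the other lists and the markers were chosen with earlier results of these data known.

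Each library was filtered and its doublets removed with Scrublet in scanpy 1.11.5 at 0.8% per 1000 cells, which took 1322 knockout-labelled and 660 wild-type cells. The automatic threshold marked 584 knockout-labelled and 245 wild-type cells. The median depth of kept cells was 7783 UMIs (knockout-labelled) and 9567 UMIs (wild type). Both libraries were clustered together without the 30 genes, but with the G2/M and other replication genes (2000 variable genes, 30 components, 15 neighbours, Leiden resolution 1 with leidenalg 0.10.2). Progenitor clusters needed 300 CPM of a set of markers with Eomes, Neurog2 and Hes5 (a further gene of the set is not reported here), less than 1500 CPM of Neurod2 and Neurod6, and 1 own marker among their 10 leading genes, and were split by Eomes, Neurog2 and Pax6 against Dlx1, Dlx2 and Dlx6os1. Genes of the G2/M list counted as own markers in both classes. These naming rules were set after the clusters had been seen, as were the comparisons between single clusters and within states.

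Counts were summed per class and library and given as CPM. Ratios have exact Poisson intervals and shares exact binomial (Clopper-Pearson) ones, from scipy 1.17.1. On simulated counts with 200 genes changed 2-fold, the 1.5-fold rule recovered 97.0% to 99.5%. Smaller changes were not simulated, so these shares do not tell how many changes near or under 1.5-fold would be missed. Alternatives changed the mitochondrial limit, doublet removal, clustering, telling of classes, scaling, free RNA, cluster weights, filters, the size of a call and thinning. Every one of the 30 genes is named. Of the list of 71, at most 5 called genes per direction were to be named.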

Additional observations from a re-analysis of the deposited data

How the results depend on the processing

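For the whole cortical and eminence classes, the direction of the summed ratios and the count of 0 genes differing between the libraries by the rule held under each alternative run. Ratios of single clusters and within states were not run under alternatives. The other values that moved beyond their counting intervals follow, for replication-high shares, for the log2 ratio of knockout-labelled over wild type, or for that of cortical over eminence cells.

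With at most 5% mitochondrial UMIs, the ratio of the libraries was -0.028 in cortical cells, the ratio of the classes was -0.74 (knockout-labelled) and -0.82 (wild type), and cortical shares were 51.4% (knockout-labelled) and 52.3% (wild type). At Leiden resolution 2 these were -0.056, -0.81 (knockout-labelled) and -0.87 (wild type), and 48.3% (knockout-labelled) and 49.9% (wild type). With all cell cycle lists left out of clustering, they were -0.050, -0.80 (knockout-labelled) and -0.83 (wild type), and 48.5% (knockout-labelled) and 49.3% (wild type), with -0.087 between the libraries in eminence cells. With a marker gate per cell, the libraries differed by -0.077 in cortical and -0.14 in eminence cells and the classes by -0.88 (knockout-labelled) and -0.94 (wild type). With equal cluster weights, the libraries differed by -0.084 in cortical and -0.075 in eminence cells and the classes by -0.83 (knockout-labelled) and -0.82 (wild type). With median-of-ratios size factors, the libraries differed by -0.080 in cortical cells and the classes by -1.12 (knockout-labelled) and -1.13 (wild type). Without doublet removal, the libraries differed by -0.17 in eminence cells, the classes by -1.08 in wild type, and cortical shares were 32.4% (knockout-labelled) and 34.6% (wild type).

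With 2-fold calls, 13 of the 30 genes were lower in cortical cells in both libraries, and between 24 and 30 under the other alternatives. With at least 4 UMIs, cortical shares were 43.0% (knockout-labelled) and 47.9% (wild type) and eminence shares 86.1% (knockout-labelled) and 88.5% (wild type). With at least 8 UMIs, they were 24.4% (knockout-labelled) and 28.6% (wild type) in cortical cells and 65.8% (knockout-labelled) and 73.6% (wild type) in eminence cells. Thinned to 1000 UMIs, with a minimum of 2 UMIs of the 30 genes, the knockout-labelled eminence share was 74.6%. Without thinning, cortical shares were 32.3% (knockout-labelled) and 37.1% (wild type). Where a cause is not given by the alternative itself, the cause was not tested.

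No paired analysis was possible because each genotype label has 1 library, so that no library was left out either. Counting error is largest for the rarest genes, such as Cdc6.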
